A study of Mus musculus with 6 samples.

Results

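The nuclear genes for the subunits of the respiratory chain and ATP synthase, and for the assembly factors that share their names, were examined in 3T3 cells with and without human PARG (hPARG). Their names begin with Nduf, Sdhaf, Uqcr, Uqcc, Cox4 to Cox8 or Atp5, or are Sdha, Sdhb, Sdhc or Sdhd, and names that mark a pseudogene were left out. This rule found 101 of the 41819 genes in the table, and it used no expression value. A single clone of mouse 3T3 fibroblasts carried the lentiviral cassette pLVX-TetOne-hPARG, from which hPARG and a fluorescent protein are made together when doxycycline is added. Both groups carried the cassette and grew in puromycin, which selects for it. The 3 hPARG dishes received 500 ng/ml doxycycline for 72 h, and the 3 control dishes received none. Among the libraries analysed here there was no group with doxycycline and no cassette, so in them doxycycline and hPARG cannot be told apart. The dishes were split from the same clone, so p-values measure only the spread between these dishes, which may be technical.

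Each dish gave between 21619908 and 25263818 counts, and a floor of 3 counts corresponds to 0.119 to 0.139 counts per 1000000 counts (CPM), for counting error only. All 8 fibroblast marker genes passed the filter on low counts, with 7020 to 9620 CPM in sum per dish. The leukocyte, endothelial and epithelial markers summed to at most 1.11, 1.35 and 1.02 CPM, with Cd3e at 0 in every dish. The muscle markers summed to at most 1.11 CPM, with Myod1 at 0 in every dish, and the neuronal markers Tubb3 and Snap25 summed to 12.4 to 16.6 CPM. The dishes numbered 2 in both groups stood apart from the other 4 dishes, and values without them are given below where a result rests on them.

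The respiratory chain of the inner mitochondrial membrane passes electrons from NADH (complex I) and succinate (complex II) to ubiquinone, on to cytochrome c (complex III) and finally to oxygen (complex IV). Complexes I, III and IV pump protons while they do so, and complex V, the ATP synthase, makes ATP as the protons flow back. Most subunits are encoded in the nucleus and described here, while the mitochondrial genome encodes the remaining core subunits of every complex except complex II. PARP enzymes use NAD+ to build the poly(ADP-ribose) chains that PARG removes, and complex I oxidises NADH to NAD+.

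By complex, 44 of the 101 genes belong to complex I (7 core subunits, 29 accessory subunits and 8 assembly factors), 8 to complex II (4 subunits and 4 assembly factors) and 11 to complex III (8 subunits and 3 assembly factors). Complex IV has 20 genes, among them 8 isoforms known for particular tissues or for low oxygen, and complex V has 18. Ndufa4 was placed with complex IV, where its protein resides, and Cox7a2l and Atp5s were placed with the assembly factors. The filter on low counts was passed by 93 of the 101 genes, among 11509 genes in all.

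The 8 genes that did not pass were at or near the floor. Cox4i2, the lung and low-oxygen form of subunit 4, had 8, 0 and 2 counts in control dishes 1, 2 and 3, the order used throughout, and 5, 1 and 2 with hPARG. Ndufa4l2, a relative of Ndufa4 known from hypoxia, had 3, 2 and 2 counts against 0, 2 and 3. Cox7a1 and Cox8b, forms of heart and skeletal muscle, had at most 2 and 4 counts in a dish, and the testis forms Cox6b2 and Cox7b2 had at most 2. Cox8c had 0 counts in every dish. Atp5o_1, an annotated row whose exons are all shared with those of Atp5o_2 and Donson, also had 0, and the counts of this gene stood in the row Atp5o_2. The muscle form Cox6a2 was the only tissue isoform that passed, with 17, 17 and 25 control counts against 16, 22 and 11. These cells thus held the partners that most tissues use: Cox4i1, Cox6a1, Cox6b1, Cox7a2, Cox7b, Cox8a and Ndufa4 had at least 65.6 CPM in every dish.

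Levels were compared between genes per length, as TPM, a share of transcripts computed here from the deposited counts and the summed exon length of each gene. Some annotated exons are retained introns that make a gene look long. A second TPM therefore used the gene length that the deposited counts and RPKM imply. It is given for the medians of complexes and for some genes, and where it is missing the values may still differ. In a whole culture, fewer cells with a transcript and less of it per cell cannot be told apart. The medians over subunits, as mean ± SD of 3 dishes, were 130 ± 13.5 TPM (control) and 137 ± 16.1 TPM (hPARG) for complex I (36 subunits), and 180 ± 11.2 and 169 ± 16.3 for complex II (4 subunits). They were 276 ± 36.8 and 309 ± 39.3 for complex III (8 subunits), 348 ± 53.7 and 391 ± 109 for complex IV (12 subunits) and 256 ± 33.2 and 267 ± 51.7 for complex V (16 subunits). Complex I thus had the lowest median and complex IV the highest, and this held with the implied length, where the medians over all 6 dishes were 139 TPM for complex I, 179 for complex II, 347 for complex III, 488 for complex IV and 414 for complex V. The order of complexes III and V did not hold: complex III was higher by exon length (293 against 262 TPM over all dishes) and lower by implied length, and by exon length the gap was smaller than the SD between dishes.

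**Figure D1:**
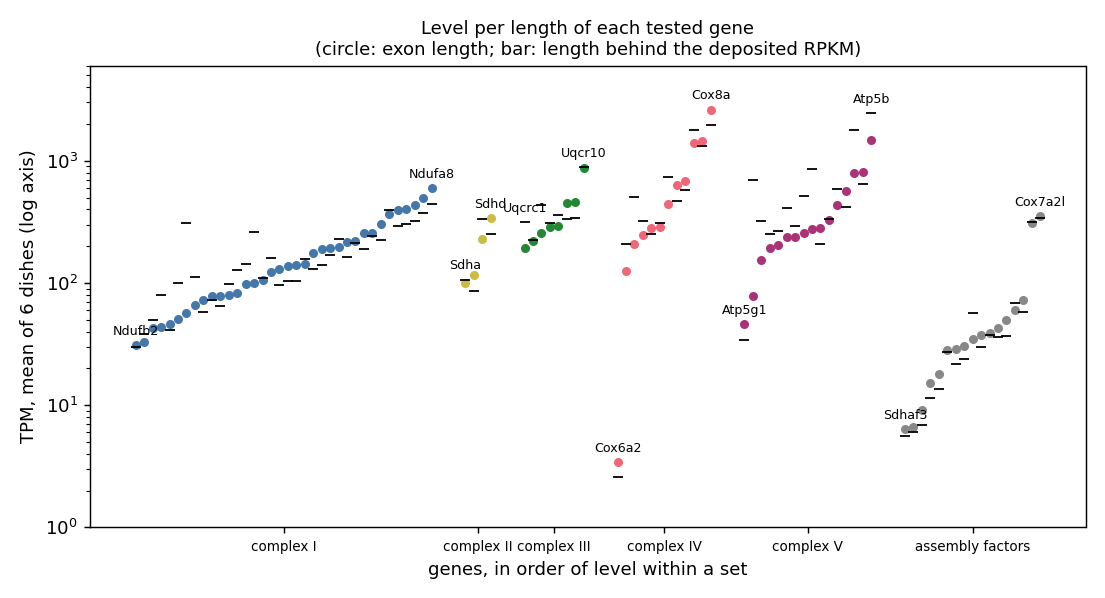
The level of each of the 93 tested genes in TPM (log axis, mean of 6 dishes), sorted within complexes I to V and the assembly factors, with a circle for the summed exon length and a bar for the length behind the deposited RPKM. Cox8a and Atp5b lie at the top with 2620 and 1485 TPM by exon length, Cox6a2 lies lowest among the subunits with 3.45 TPM, and 15 of the 17 assembly factors lie at or below 72.8 TPM.

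The highest subunit was Cox8a of complex IV with 2620 TPM (1949 by implied length), followed by the ATP synthase beta subunit Atp5b, which carries the catalytic sites, with 1485 TPM (2444 by implied length, where it came first). Cox6a1 (1442 TPM) and Cox4i1 (1397 TPM) came next by exon length. By implied length Atp5g3 (1793 TPM) came after Cox8a, followed by Cox4i1 (1775 TPM) and Cox6a1 (1318 TPM). Cox6a2 was lowest among the subunits with 3.45 TPM. In complex I, Ndufa8 was highest (599 TPM) and Ndufb2 lowest (31.2 TPM), a 19.2-fold span. By implied length they had 445 and 29.9 TPM, a 14.9-fold span. In complex III, Uqcr10 was highest with 881 TPM. Uqcrc1 was lowest by exon length with 195 TPM, and Uqcrc2 was lowest by implied length with 223 TPM. In complex II, Sdha, the flavoprotein that oxidises succinate, had 101 TPM and Sdhd, a membrane anchor, 338 TPM by exon length, while by implied length Sdhc was lowest (86.8 TPM) and the iron-sulfur subunit Sdhb highest (333 TPM). The 17 assembly factors ran from 6.38 TPM (Sdhaf3) to 352 TPM (Cox7a2l), and 15 of them lay at or below 72.8 TPM (Ndufaf8). Cox7a2l, which takes part in joining complexes III and IV into a supercomplex, and Uqcc2, an assembly factor of complex III with 311 TPM, were the 2 exceptions.

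The membrane ring of ATP synthase, the c subunit, is encoded by the 3 genes Atp5g1 (chr11:96068852-96075670), Atp5g2 (chr15:102662864-102672352) and Atp5g3 (chr2:73908447-73911326, GRCm38). They are shown here because they make the same mature protein from different transcripts, so that their counts can be told apart although their product cannot. The last 75 codons before the stop codon, in GENCODE M21, are printed 5′ to 3′ with capitals at the bases that differ between any of the 3 genes.
Atp5g1: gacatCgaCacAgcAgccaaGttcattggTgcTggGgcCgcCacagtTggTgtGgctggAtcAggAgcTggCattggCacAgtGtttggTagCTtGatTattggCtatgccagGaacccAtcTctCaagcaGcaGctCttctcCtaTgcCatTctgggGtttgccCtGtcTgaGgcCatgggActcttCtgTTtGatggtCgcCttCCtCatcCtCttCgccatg
Atp5g2: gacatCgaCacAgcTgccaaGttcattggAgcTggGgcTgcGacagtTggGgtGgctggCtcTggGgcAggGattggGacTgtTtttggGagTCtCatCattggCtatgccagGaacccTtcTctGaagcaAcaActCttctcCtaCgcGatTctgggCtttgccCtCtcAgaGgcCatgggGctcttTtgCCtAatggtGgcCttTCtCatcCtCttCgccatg
Atp5g3: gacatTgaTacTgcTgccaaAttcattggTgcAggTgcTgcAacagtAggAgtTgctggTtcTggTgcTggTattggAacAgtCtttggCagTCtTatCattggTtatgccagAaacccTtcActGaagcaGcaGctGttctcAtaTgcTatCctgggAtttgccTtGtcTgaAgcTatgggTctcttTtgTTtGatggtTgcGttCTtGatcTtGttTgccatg
Of these 225 bases, 57 differed between any of the 3 genes and 52 of those were at the last position of a codon, while 0 of the 75 encoded residues differed. Atp5g1 and Atp5g2 differed at 34 bases, Atp5g1 and Atp5g3 at 45, and Atp5g2 and Atp5g3 at 48. Atp5g3 supplied most of this transcript pool, with 800 TPM (1793 by implied length), against 279 TPM (208) for Atp5g2 and 46.1 TPM (34.3) for Atp5g1. Atp5g3 came first with both lengths. For Atp5g2 (1675 bases) and Atp5g1 (4912 bases) both lengths are the same, so the second TPM could not change their order. In CPM, Atp5g3 had 629, 459 and 707 in the controls and 677, 465 and 619 with hPARG, and Atp5g1 had 76.3, 62.9 and 84.1 against 82.6, 65.4 and 89.9. Both were lowest in dish 2 of each group, and the groups overlapped. Their log2 fold changes were -0.03 ± 0.197 (SE) and 0.09 ± 0.156, and that of Atp5g2 is given with the comparison of hPARG and control.

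The dishes of a group differed from each other by more than the groups did. Relative to the mean of its group, the median of the 93 genes on the log2 CPM scale lay at 0.04, -0.27 and 0.25 in the controls and at 0.12, -0.33 and 0.19 with hPARG. The medians over all tested genes lay between -0.01 and 0.02. Together the 101 genes held 1.49%, 1.23% and 1.61% of the control counts and 1.59%, 1.23% and 1.61% of those with hPARG. In 84 of the 93 genes (90.3%) dish 2 was the lowest of its group in both groups, compared with 3580 of the 11509 tested genes (31.1%). The dip was seen in each complex: the medians in control dish 2 and hPARG dish 2 were -0.30 and -0.34 in complex I, -0.23 and -0.28 in complex II, -0.29 and -0.38 in complex III, -0.32 and -0.35 in complex IV, -0.33 and -0.33 in complex V and -0.20 and -0.26 in the assembly factors.

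**Figure D2:**
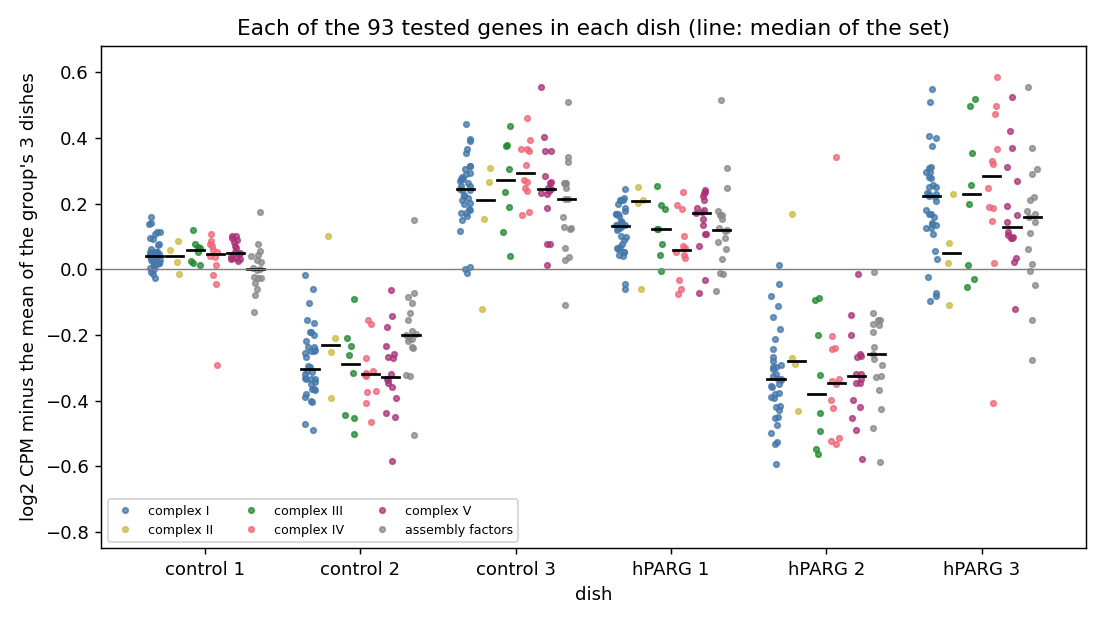
Log2 CPM of each of the 93 tested genes minus the mean of the 3 dishes of its group (vertical axis), by dish and coloured by complex, with a line at the median of each set. In control dish 2 and hPARG dish 2 the median of every set lies below 0, between -0.20 and -0.38, and in the other 4 dishes it lies at or above 0.

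The dip was largest in Uqcc2, in Uqcr11, a small subunit of complex III, and in Atp5e, the epsilon subunit of ATP synthase, with mean deviations of -0.55, -0.53 and -0.51 in the dishes numbered 2. Uqcr11 had 58.5, 39.4 and 75.5 CPM in the controls and 67.6, 44.4 and 94.0 with hPARG. Atp5e had 164, 118 and 212 CPM against 187, 108 and 208. In both genes the range within a group was wider than the difference between the group means. At the other end, Sdha was higher in the dishes numbered 2 (mean deviation 0.13), with 139, 147 and 126 CPM against 133, 156 and 129. Cox6a2, at few counts, and Atp5s followed with 0.09 and -0.002.

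The respiratory chain and ATP synthase genes are short. Their median summed exon length was 1756 bases (1121 by implied length), compared with 4548 (3506) over all tested genes. Across all tested genes, the deviation in the dishes numbered 2 rose with exon length (Spearman's rho = 0.53 in the control and 0.521 in the hPARG dish), and among the 93 genes rho was 0.369 and 0.281. With the implied length, rho was 0.601 and 0.59 over all genes and 0.535 and 0.395 among the 93. In the other 4 dishes rho was negative over all genes, between -0.252 and -0.513 by exon length. The deviations of a group cancel out for each gene, so these signs are not independent of those in the dishes numbered 2. These correlations are descriptions across genes of the same libraries, and genes are not independent replicates.

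Genes of broadly like length were then compared. Among the 20% of tested genes with the shortest exons, of at most 2560 bases, 66 of the 93 genes had median deviations of -0.32 in control dish 2 and -0.34 in hPARG dish 2, while the other 2236 genes of that length had -0.18 and -0.19. The respiratory chain genes in this span of 204 to 2560 bases thus lay lower than the other genes in it. Lengths inside the span were not matched. After a smooth function of exon length was removed from each dish, the medians of the 93 genes in these dishes were -0.12 and -0.14, and after a function of implied length they were -0.05 and -0.09. Within the 93 genes, the values left by the exon length step fell as exon length rose. Spearman's rho turned from 0.369 to -0.449 (control dish 2) and from 0.281 to -0.456 (hPARG dish 2). The medians of -0.12 and -0.14 are therefore not free of length. Ndufs1, the largest core subunit of complex I, with 8086 bases of exon (3070 implied), deviated by -0.03. Of the 5 genes with 5383 to 7811 bases of exon, Sdhaf2 (7195 bases, 6914 implied) and Ndufb2 (5628 bases, 4375 implied) deviated by -0.33 and -0.47. Atp5l (6443 bases, 544 implied), Ndufab1 (6883 bases, 4473 implied) and Uqcc1 (6044 bases, 2752 implied) deviated by -0.42, -0.24 and -0.16. What the dishes numbered 2 had in common was not tested.

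**Figure D3:**
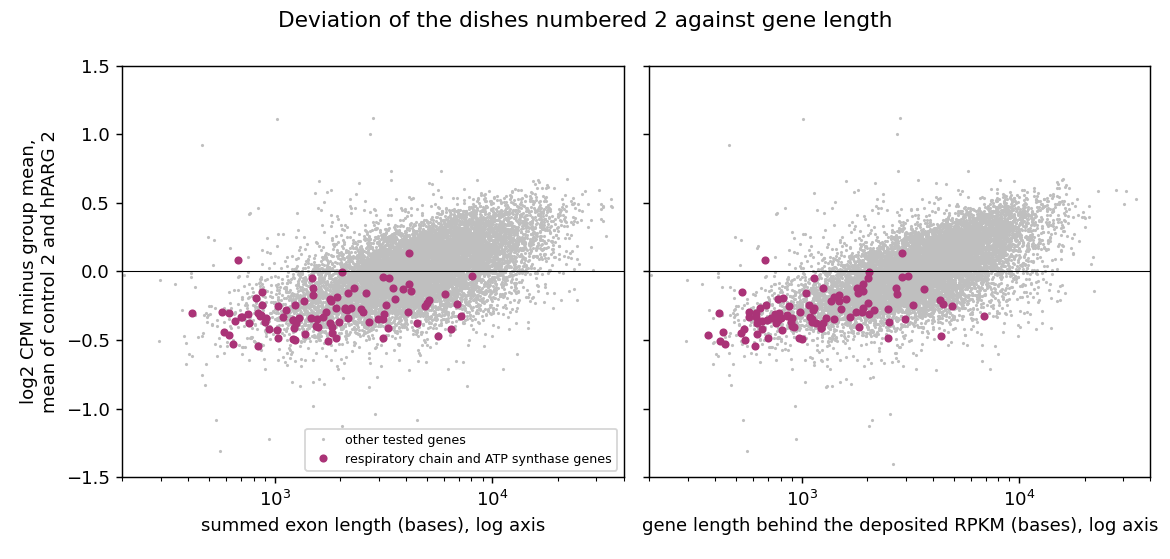
Log2 CPM minus group mean, averaged over control dish 2 and hPARG dish 2 (vertical axis), against gene length in bases (log axis) by summed exons on the left and by the length behind the deposited RPKM on the right, for the 93 genes (purple) and the other tested genes (grey). The purple points lie mostly at the short end and below 0, with Sdha at 0.13 as the highest of them.

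Between hPARG and control dishes, no gene of the respiratory chain or ATP synthase passed the test that treats the 6 dishes as unpaired. With edgeR's quasi-likelihood test, 0 of the 93 genes were called at a false discovery rate (FDR, Benjamini-Hochberg over all tested genes) under 0.05, where 10 of 11509 genes (0.0869%) were called. At an unadjusted p under 0.05 there were 0 of the 93 genes, beside 455 genes (3.95%) in all. DESeq2 also called 0 of the 93 at an FDR under 0.05 (52 genes or 0.452% in all), as did edgeR's likelihood ratio test (65 genes or 0.565% in all). The 3 hPARG dishes and the 3 control dishes overlapped in every one of the 93 genes, while they did not in 1107 of all tested genes (9.62%). The lowest unadjusted p of the 93 genes was 0.134, and the lowest FDR was 0.999. The SE of the log2 fold change ran from 0.0974 (Ndufa10) to 0.372 (Cox6a2), which limits what 3 dishes a group can show. An alternative fit with a replicate block, which pairs dishes by number, called 5 of the 93 genes higher (5.38%, beside 2.87% of all genes). The common biological coefficient of variation, a measure of spread between dishes, was 0.148 without and 0.0615 with the block. The numbers were not taken to pair the dishes, and these calls are given with the dependence on processing.

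The fold changes were small. The log2 fold changes ran from -0.24 (Cox6a2) to 0.48 (Ndufb4), with a median of 0.09 against 0.004 for all tested genes, and 68 of the 93 were above 0. This median lay within the differences between dishes: it was 0.10 without both dishes numbered 2, but -0.05 without control dish 2, -0.01 without hPARG dish 3 and 0.23 without hPARG dish 2. It was 0.12 for complex I, -0.01 for complex II, 0.14 for complex III, 0.13 for complex IV, 0.06 for complex V and 0.05 for the assembly factors. Within complex I the accessory subunits had a median of 0.13, with 27 of 29 above 0, and the core subunits one of -0.02, with 2 of 7 above 0. The accessory subunits were also the shorter ones, with a median exon length of 1251 bases against 2178 for the core. No test of the difference between these sets was made. In the 93 genes the log2 fold change followed the deviation of hPARG dish 3 (Spearman's rho = 0.68) and exon length (rho = -0.298). The values of hPARG dish 3 enter both this deviation and the group mean behind the fold change. Over all tested genes rho of log2 fold change and exon length was 0.0962.

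**Figure D4:**
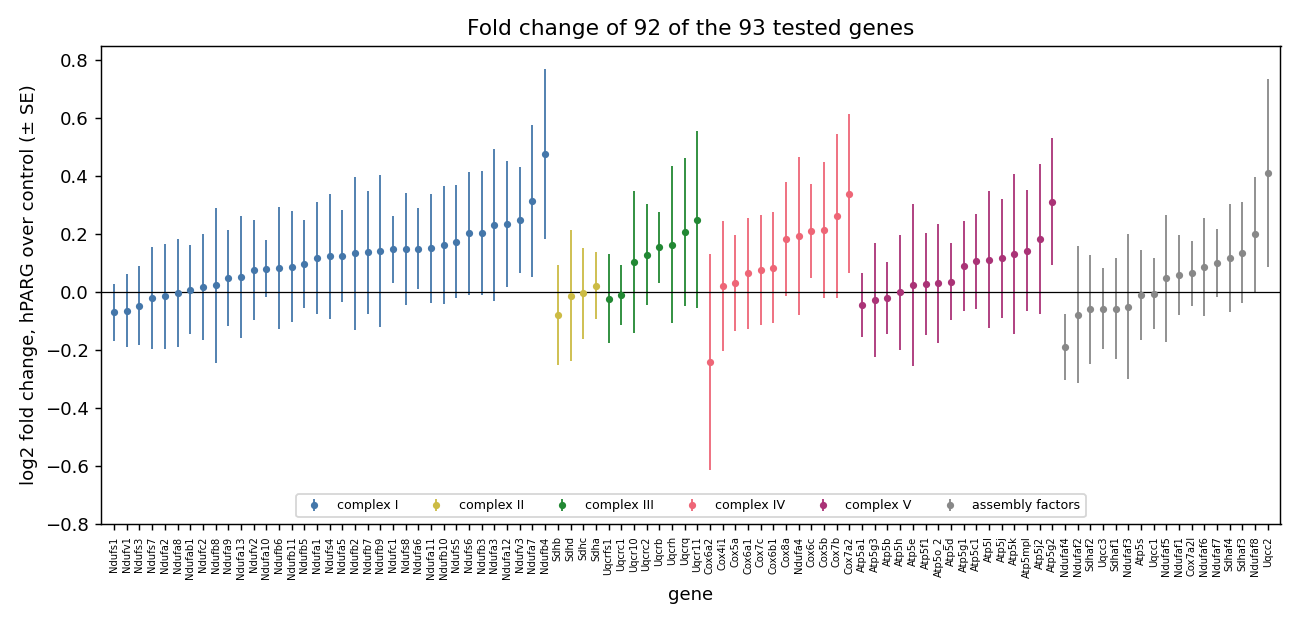
Log2 fold change of hPARG over control for 92 of the 93 tested genes, with bars of ± 1 SE, sorted within each complex. Values run from -0.24 to 0.48, and 0 of them passed the unpaired test.

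In complex I, which takes electrons from NADH, the core subunits carry the flavin and the iron-sulfur clusters. Ndufs1, which holds several of the clusters, had 144, 140 and 142 CPM in the controls and 149, 131 and 126 with hPARG, a log2 fold change of -0.07 ± 0.0997 (SE). Ndufv1, which binds the flavin and NADH, had 132, 116 and 145 CPM against 140, 113 and 123, a log2 fold change of -0.06 ± 0.125. The control and hPARG values overlapped in both. Ndufs3, Ndufs7, Ndufs8 and Ndufv2 lay between 44.5 and 153 CPM in all dishes, each lowest in dish 2 of both groups. The core subunits ran from -0.07 to 0.15 in log2 fold change.

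The largest log2 fold change was in the accessory subunit Ndufb4 (ENSMUSG00000022820, chr16:37647170-37654453), which had 53.0, 40.3 and 67.6 CPM in the controls and 73.1, 47.0 and 104 with hPARG. Dish 3 was the highest and dish 2 the lowest in both groups, and hPARG dish 2 lay below 2 of the control dishes. The log2 fold change was 0.48 ± 0.293 (edgeR, FDR 0.999), and 0.56 (FDR 0.267) without both dishes numbered 2. With each dish left out in turn it ran from 0.16 (without hPARG dish 3) to 0.72 (without hPARG dish 2), and it was 0.31 without control dish 2. Ndufb4, like other genes described here, has near-identical copies in the mouse genome, and how reads were shared among copies makes its counts uncertain. Ndufa7 had 54.1, 42.8 and 72.2 CPM against 73.9, 47.0 and 89.2, a log2 fold change of 0.31 ± 0.262. Its pattern over the dishes was that of Ndufb4. Ndufv3, a small subunit of the NADH-oxidising arm, had 35.8, 25.5 and 36.1 CPM against 39.8, 31.2 and 44.8 (0.25 ± 0.182). Ndufc1 had 23.1, 21.4 and 22.4 CPM against 25.3, 21.7 and 27.2 (0.15 ± 0.116). In both, hPARG dishes 1 and 3 lay above all control dishes and hPARG dish 2 did not.

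**Figure D5:**
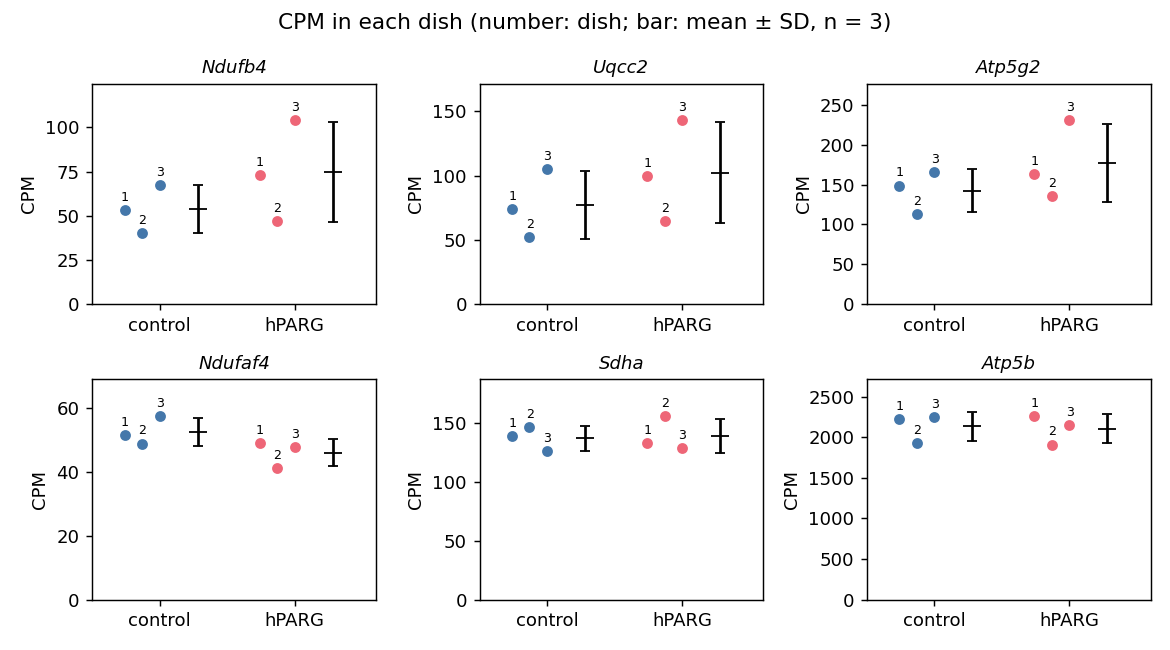
CPM in each dish for Ndufb4, Uqcc2, Atp5g2, Ndufaf4, Sdha and Atp5b, with the dish number at each point and the mean ± SD of the 3 dishes beside them. In Ndufb4, Uqcc2 and Atp5g2 dish 2 is lowest and dish 3 highest in both groups, Sdha is highest in dish 2, and the groups overlap in all 6 genes.

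In complex II, which is also the succinate dehydrogenase of the citric acid cycle and wholly nuclear-encoded, the 4 subunits had log2 fold changes between -0.08 and 0.02. Sdhb had 174, 148 and 212 CPM in the controls and 193, 136 and 176 with hPARG (-0.08 ± 0.173). Sdha differed by 0.02 ± 0.115, and it was the only subunit of the complex that was not lowest in the dishes numbered 2. Sdhc and Sdhd, the membrane anchors, lay between 102 and 173 CPM, with both groups lowest in dish 2.

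In complex III, the Rieske iron-sulfur protein Uqcrfs1 had 227, 178 and 226 CPM against 245, 179 and 197, and the core protein Uqcrc1 had 282, 256 and 280 CPM against 294, 253 and 265. In neither did the group means differ by more than the spread. Uqcrc2, the other core protein, had 186, 152 and 215 CPM against 217, 159 and 229. Among the small subunits, Uqcrb had 83.1, 70.8 and 93.5 CPM against 96.6, 86.2 and 92.5, and Uqcrq had 264, 210 and 324 against 295, 210 and 418. The value of 418 CPM in hPARG dish 3 was the highest for Uqcrq, and its other 2 hPARG values lay within or at the edge of the control range. The log2 fold change of Uqcr11 was 0.25 ± 0.306.

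In complex IV, Cox4i1, the partner of Cox4i2, had 747, 554 and 894 CPM against 857, 543 and 829. Cox5a, a subunit around the catalytic core, had 154, 116 and 171 CPM against 169, 130 and 151. Cox5b, which binds zinc, had 126, 92.0 and 157 CPM against 149, 108 and 178. All 3 genes were lowest in dish 2 of both groups. Cox7c, a small membrane subunit, had 225, 186 and 299 CPM against 257, 210 and 282, within the same span. Cox6c, another small membrane subunit, had 139, 126 and 159 CPM against 153, 136 and 202, a log2 fold change of 0.21 ± 0.163. Cox7b, whose partner Cox7b2 was at the floor, had 109, 74.5 and 135 CPM against 126, 85.8 and 170 (0.26 ± 0.282). Cox7a2 had 83.5, 65.6 and 98.1 CPM against 95.1, 68.9 and 149. In Cox6c, Cox7b and Cox7a2 hPARG dish 3 was the highest of the 6 dishes. Cox8a had 551, 424 and 575 CPM against 562, 456 and 742. Cox6a1 had 344, 266 and 399 CPM against 397, 274 and 384, and Cox6b1 had 165, 126 and 186 CPM against 178, 130 and 197. Ndufa4 had 194, 148 and 247 CPM against 221, 149 and 304. The dishes numbered 2 were again lowest in each of these genes. Cox6a2 differed by -0.24 ± 0.372 at 0.505 to 1.18 CPM, and without control dish 3 this turned to 0.04.

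In complex V, Atp5a1 and Atp5b, the alpha and beta subunits of the catalytic head, had the highest mean CPM of the 93 genes. Atp5b had 2230, 1930 and 2250 CPM in the controls and 2260, 1910 and 2150 with hPARG, a log2 fold change of -0.02 ± 0.124. Atp5a1 had 889, 823 and 868 CPM against 913, 823 and 764. The control and hPARG dishes covered the same range in Atp5b, and in Atp5a1 hPARG dish 3 was lowest. The gamma subunit Atp5c1, the central shaft, had 356, 292 and 408 CPM against 423, 312 and 402, and Atp5o_2, the oligomycin sensitivity conferral protein of the stalk, had 143, 105 and 158 against 160, 103 and 152. For the last gene, 35.6% of the exon bases overlap genes on the opposite strand, and whether the counting used strand is not given in the sources used here. Atp5g2 had 149, 113 and 166 CPM against 164, 136 and 231, a log2 fold change of 0.31 ± 0.218, and the value of 231 in hPARG dish 3 was the only hPARG value above all 3 controls. Without hPARG dish 3 the log2 fold change was 0.07, without control dish 2 it was 0.17, and without hPARG dish 2 it was 0.47.

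Of the 17 assembly factors, 9 had a log2 fold change above 0 and 8 below, from -0.19 to 0.41. In edgeR's unpaired test, 0 passed at an FDR or an unadjusted p under 0.05. Uqcc2 had 73.9, 52.0 and 105 CPM in the controls and 99.3, 64.8 and 143 with hPARG (0.41 ± 0.325). Its log2 fold change was 0.09 without hPARG dish 3, 0.19 without control dish 2, 0.65 without hPARG dish 2 and 0.70 without control dish 3. Both dish 3 values were more than 2 times those of dish 2, and the groups overlapped. Ndufaf4, a complex I assembly factor, had 51.6, 49.0 and 57.6 CPM against 49.2, 41.3 and 48.0 (-0.19 ± 0.114, edgeR, FDR 0.999), the lowest p of all 93 genes, with hPARG dish 1 just above control dish 2. Uqcc3 had 14.4, 12.2 and 15.6 CPM against 14.3, 11.8 and 14.5 (-0.06 ± 0.14). Exon bases of Sdhaf1 and Ndufaf2 overlap other genes on the opposite strand at 69.6% and 65.6%, and their values are uncertain for that reason, as are those of Ndufb6 (39%) and Ndufa13 (30%).

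Promoters were examined because NRF1 and the ETS-type factor GABP are known regulators of respiratory chain genes. RefSeq promoter sequences (GRCm38.p6, 250 bases before to 50 after each start) were matched by symbol or synonym to 79 of the 93 genes. The NRF1 palindrome GCGCATGCGC was found in 7 of the 79 (8.86%), compared with 231 of 9202 tested genes with a promoter (2.51%) and 290 of all 27025 (1.07%). The ETS letters CCGGAAG were found on either strand in 21 of the 79 (26.6%), compared with 1969 of 9202 (21.4%) and 2683 of 27025 (9.93%). Both motifs stood in the promoters of Atp5k and Cox6a1. For the 7 genes with the palindrome, 50 bases around it are printed 5′ to 3′ on the strand of the gene, with the palindrome in capitals, to show its setting.
Atp5g2 (chr15:102671060-102671109, - strand): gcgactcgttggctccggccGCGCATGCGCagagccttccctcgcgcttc
Atp5k (chr5:108434420-108434469, - strand): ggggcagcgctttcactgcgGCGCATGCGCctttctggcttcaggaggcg
Cox6a1 (chr5:115349091-115349140, - strand): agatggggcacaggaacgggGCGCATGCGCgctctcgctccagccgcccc
Ndufa11 (chr17:56717682-56717731, + strand): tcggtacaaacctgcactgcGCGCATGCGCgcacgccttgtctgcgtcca
Ndufaf4 (chr4:24897950-24897999, + strand): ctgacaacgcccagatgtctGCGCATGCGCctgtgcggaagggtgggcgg
Ndufaf5 (chr2:140170642-140170691, + strand): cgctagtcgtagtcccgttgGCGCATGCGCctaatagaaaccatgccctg
Uqcrc1 (chr9:108936648-108936697, + strand): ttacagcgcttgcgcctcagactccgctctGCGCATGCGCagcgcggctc
The palindrome began 162, 113, 60, 50 and 42 bases before the start in Cox6a1, Ndufaf4, Ndufa11, Atp5k and Atp5g2, and after it in Ndufaf5 and Uqcrc1. The 7 genes had log2 fold changes on both sides of 0, from that of Ndufaf4 (-0.19) to that of Atp5g2 (0.31). A match of letters is a description of these windows, and binding was not measured.

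Genes of the same pathway outside the name rule were counted for comparison. The 13 subunits encoded by the mitochondrial genome all had higher means in the hPARG dishes, with a median log2 fold change of 0.64 (0.45 to 0.82). With edgeR, 8 of the 13 had an unadjusted p under 0.05, beside 3.95% of all tested genes. At an FDR under 0.05 there were 0 (lowest 0.935). The 13 genes were read from the same dishes and are not independent replicates. Beside 9.62% of all tested genes, the groups did not overlap in 1 of the 13. This gene, mt-Nd3, a core subunit of complex I, had 278, 286 and 322 CPM in the controls and 360, 448 and 750 with hPARG, a log2 fold change of 0.82 ± 0.252. Their deviations from the group mean had another order of dishes than those of the nuclear genes, with medians of -0.44, -0.08 and 0.53 with hPARG, and dish 2 was the lowest in both groups in 0 of the 13. The difference between nuclear and mitochondrial subunits was not tested. Of 42 further subunits and assembly factors, such as Cyc1 and Surf1, 41 passed the filter and 0 had an FDR under 0.05. Sco2, a copper chaperone of complex IV, had 8.55, 8.78 and 7.12 CPM against 4.95, 4.20 and 6.93 (-0.61 ± 0.203, edgeR, FDR 0.995), and Atpaf2, an assembly factor of ATP synthase, had 21.9, 21.4 and 22.9 against 19.1, 17.9 and 17.9 (-0.27 ± 0.0969, FDR 0.999). They were the 2 of the 41 genes at an unadjusted p under 0.05, beside 3.95% of all tested genes. The groups did not overlap in 6 of the 41, beside 9.62% of all tested genes. Of the 12 regulators, among them Ppargc1a, Nrf1, Gabpa and Tfam, 2 had log2 fold changes above 0 and 10 below, between -0.16 and 0.32. Of these 12, 0 had an FDR or an unadjusted p under 0.05, and the groups did not overlap in 2, beside 9.62% of all tested genes.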

How the data were processed

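Poly(A) RNA of 6 dishes was measured. The sample labels name wells of a 6-well plate and the methods name 10 cm dishes. The authors mapped paired-end reads to GRCm38 with Ensembl annotation in CLC Genomics Workbench and deposited whole-number counts per gene, without normalization. The authors also deposited RPKM, used here only to derive the gene length behind it, scaled to the exon length of genes with 1 annotated transcript. In all, 12 other deposited per-sample columns (TPM and CPM) and the columns of the authors' comparison (fold change, p and FDR) were not used.

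Counts were filtered (filterByExpr, minimum count 10), normalized by TMM and compared over all tested genes by the quasi-likelihood test (glmQLFit, glmQLFTest) of edgeR 4.0.16 under R 4.3.3. CPM values are TMM-normalized, except the floor and the sums of marker genes, which were scaled by total counts only. For log2 CPM a prior count of 2 was used, and the SE was taken from the log2 fold change and the F statistic. TPM was computed here from counts and exon lengths of GENCODE M21, over all genes. The smallest p of an exact permutation test of 3 dishes against 3 is 0.1. Alternatives were DESeq2 1.42.0, the likelihood ratio test, RLE factors, library size only, other filters, a replicate block, dishes left out, and removal of length, fitted in each dish by a spline of 4 degrees of freedom, or of length and GC content. Removal of the implied length was added after the data were seen.

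The genes, their roles and the lists were chosen with earlier results of these data known. Named genes are the core subunits, isoforms with their partners, the 6 lowest p in each direction, the highest and lowest level per complex and the 3 highest and lowest deviations in the dishes numbered 2. Other genes named were chosen after their values were seen. The values of 1 core subunit are not reported here.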

Additional observations from a re-analysis of the deposited data

How the results depend on the processing

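The count of 0 of the 93 genes at an FDR under 0.05 was the same with DESeq2, the likelihood ratio test, RLE factors, library size only, other filters, each dish left out, both dishes numbered 2 left out, and the length corrections without a block. Over all genes the count of 10 became 52 with DESeq2, 65 with the likelihood ratio test, 16 with no filter, 25 after the length correction, 27 after length and GC, 28 with the implied length, 40 without the dishes numbered 2, and 3 to 13 with each dish left out (3 without hPARG dish 1 and 5 without hPARG dish 3). Of the 93 genes, 8 were higher at an unadjusted p under 0.05 without the dishes numbered 2 (8.6% against 6.78% of all genes). With each dish left out the number was 0 to 6 (2.25% to 4.95% of all genes). The 6 were found without hPARG dish 2 (6.45% against 3.84% of all genes). It was 1 after the length correction (1.08% against 5.4%), 1 after length and GC (1.08% against 6.15%) and 2 with the implied length (2.15% against 6.26%). Genes whose groups did not overlap numbered 15 without the dishes numbered 2 (35.4% of all genes), 0 to 14 with each dish left out (14.7% to 23.7%; 14 without hPARG dish 2, 20.9%), 1 with library size only (10.2%), 1 with no filter (8.23%), 6 after the length correction (11.7%), 6 after length and GC (12.6%) and 8 with the implied length (12.5%). The cause was not tested.

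With the replicate block, 5 of the 93 genes (5.38%) were called higher at an FDR under 0.05, namely Atp5g2, Cox7b, Ndufa7, Ndufb4 and Uqcc2, beside 330 of all genes (2.87%), and 28 were higher and 1 lower at an unadjusted p under 0.05 (31.2% against 17.9% of all genes). With the length correction and the replicate block there were 4 (Cox5b, Ndufa7, Ndufb4 and Uqcc2; 276 of all genes), 21 higher and 2 lower at an unadjusted p under 0.05 (24.7% against 18.3% of all genes) and 6 without overlap, and with the implied length and the block 3 (Atp5g2, Ndufb4 and Uqcc2; 365 of all genes), 18, 3 (22.6% against 19% of all genes) and 8. The numbers were not taken to pair the dishes, since deviations from the group means correlated at 0.0963, 0.61 and 0.168 for the numbers 1 to 3 over all genes, the first just under the 0.1 required. Over the 93 genes alone they correlated at 0.101, 0.755 and 0.502. Control dish 1 correlated best with hPARG dish 3, at 0.207 over all genes and 0.146 over the 93, and control dish 3 with hPARG dish 1 over all genes (0.335).

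The median deviation of the 93 genes in the dishes numbered 2 was -0.311 before, -0.136 after the length correction and -0.0735 with the implied length. The median levels with the implied length moved to 346.8 TPM in complex III, 487.8 in complex IV and 413.6 in complex V. Summed over subunits, levels were 6458, 783.8, 3049, 8372 and 6380 TPM for complexes I to V. Small log2 fold changes changed sign: Sdha to -0.00559 with library size only and -0.0127 without the dishes numbered 2, Atp5b to 0.00688 with the implied length and 0.00701 with the implied length and the block, and Atp5g3 to 0.000901 after length and GC. With each dish left out, log2 fold changes ran from -0.0877 to 0.0468 (Atp5b), -0.0169 to 0.211 (Atp5g1), 0.073 to 0.472 (Atp5g2), -0.186 to 0.115 (Atp5g3), -0.457 to 0.0444 (Cox6a2), 0.0324 to 0.326 (Cox6c), -0.0013 to 0.481 (Cox7b), 0.102 to 0.534 (Ndufa7), -0.241 to -0.117 (Ndufaf4), 0.164 to 0.723 (Ndufb4), 0.0754 to 0.234 (Ndufc1), -0.145 to -0.0218 (Ndufs1), -0.153 to 0.0131 (Ndufv1), 0.101 to 0.381 (Ndufv3), -0.0685 to 0.0762 (Sdha), -0.197 to 0.0635 (Sdhb), 0.0914 to 0.7 (Uqcc2), -0.151 to 0.033 (Uqcc3) and -0.0443 to 0.488 (Uqcr11).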
